A study of Drosophila melanogaster with 4 samples.

Results

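The imaginal disc growth factor (Idgf) genes of Drosophila melanogaster form a family of 6 genes, Idgf1 to Idgf6, and all 6 were measured here, among 11980 genes with a single symbol and 13891 features in all. The genes were found by their exact symbol in the array annotation, and each had 1 probe. The family was chosen by its log2 ratios of invadolysin mutant over wild-type larvae, in which its members had opposite directions. These ratios are therefore given as a description of the 6 genes. How many of them passed the threshold of the fit over all features is printed beside the share of all features, and is no test of the family.

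The series set larvae of the invadolysin mutant allele 4Y7 against larvae of the wild-type strain Canton S on 4 two-colour arrays, each holding 1 mutant and 1 wild-type sample of total RNA, with stocks kept at 25 °C. The mutant was labelled with Cy5 on replicates 1 and 4 and with Cy3 on replicates 2 and 3. The labels give the stage only as larva and do not give zygosity, larval age, sex or the lesion of 4Y7. The series calls the arrays biological replicates, and each array counts as 1.

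Values are taken as log2 ratios, on which 1 unit is a 2-fold difference. The base is not stated in the sources used here, and every fold value rests on it. The ratios are read here as the mutant level over that of Canton S. That direction is likely but not stated, and its basis is how the titles word the comparison. Whether the swapped arrays had been turned to run the same way is a separate question, and here they are taken as turned. The signs given for replicates 2 and 3 rest on this assumption. Pairs of arrays that differed in the dye of the mutant had a mean Pearson r of 0.217. Leaving out replicate 1, 2, 3 or 4 gave a mean r of 0.035, 0.218, 0.216 or 0.399. This r cannot decide the question, since a dye bias of the probes would also make it positive in ratios not yet turned. If the direction were the opposite, each "higher" would read "lower". The highest r of any pair was 0.651, between replicates 2 and 3, which share the dye of the mutant. Replicate 4 stood apart from the others, with r of 0.213, 0.031 and 0.039 with replicates 1, 2 and 3, and values are given for every array. In whole larvae, fewer cells of a type and less RNA per cell cannot be told apart.

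Idgf proteins are secreted glycoproteins with the fold of the family 18 chitinases, the enzymes that cut the chitin of cuticle and gut lining, but they are chitinase-like and lack the catalytic activity. They were first described as factors that let imaginal disc cells grow in culture, together with insulin. The fat body and blood cells are among their known sources in larvae. Later work in flies tied the family to the organisation of the cuticle and to wound closure. Invadolysin is a conserved zinc metalloprotease.

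Idgf1 and Idgf3 were higher in the mutant on every array, Idgf4 was lower on every array, and Idgf2, Idgf5 and Idgf6 had values on both sides of 0. The mean log2 ratios were 1.93 ± 0.50 for Idgf1, 0.92 ± 0.18 for Idgf3 and -1.41 ± 0.27 for Idgf4 (SD, n = 4 arrays). Those of the other members were 0.12 ± 0.55 for Idgf2, 0.08 ± 0.20 for Idgf5 and 0.00 ± 0.88 for Idgf6. Of the 6 genes, 2 were above 0 on all 4 arrays, as were 14.0% of all features, and 1 was below 0 on all 4, as were 14.9%. Taken over both signs this is 3 of 6, beside 28.9% of all features. In limma's moderated test, with Benjamini-Hochberg adjustment over all features and a threshold of 0.05, 2 of the 6 were past the threshold, against 0.821% of all features. Idgf1 was the 1 gene past it above 0, beside 0.396% of all features, and Idgf4 the 1 below 0, beside 0.425%. Since these values chose the family, nothing is read from any of these counts.

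Idgf1, a growth factor of cultured disc cells, had log2 ratios of 1.42, 2.29, 2.43 and 1.59 on replicates 1 to 4. All 4 values lay above the highest value of any other member, and they correspond to between 2.68 and 5.40 times the wild-type level. Its mean of 1.93, a 3.82-fold difference, was the 42nd highest of the 13891 features. The arrays with the mutant in Cy3 gave the higher pair of values (mean 2.36) and those with it in Cy5 the lower pair (mean 1.51). Both orientations placed the gene in the upper tail, where its ranks from the top on replicates 1 to 4 were 169, 76, 71 and 219.

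Idgf3, whose protein has been found in clots of larval blood, had log2 ratios of 1.12, 0.87, 0.70 and 1.0 on replicates 1 to 4. Its 4 values were close together, and they did not reach those of Idgf1. Its SD of 0.18 was at percentile 10.4 of the SDs of all features, whose median SD was 0.42. The mean of 0.92 is a 1.89-fold difference and was the 283rd highest mean. The mean was 1.06 where the mutant carried Cy5 and 0.78 where it carried Cy3, so the higher orientation was the reverse of that for Idgf1.

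Idgf4, the member on the X chromosome, was the one with all values below 0. Its log2 ratios were -1.27, -1.18, -1.79 and -1.41 on replicates 1 to 4. Every value lay below the lowest value of any other member, and they correspond to levels between 2.27 and 3.46 times lower than in wild type. The mean of -1.41, a 2.66-fold difference, was the 200th lowest of all features. The orientations gave means of -1.34 (mutant in Cy5) and -1.49 (mutant in Cy3), a gap under the gene's SD over arrays of 0.27. Its ranks from the bottom on replicates 1 to 4 were 434, 452, 273 and 613.

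Idgf1 and Idgf4 both passed 2-fold on all 4 arrays in a fixed direction, as did 0.864% of all features. On each of the 4 arrays Idgf1 was the highest and Idgf4 the lowest member. The gap between them was 2.70, 3.47, 4.23 and 3.00 log2 units on replicates 1 to 4 (mean 3.35 ± 0.67). The size of this gap does not depend on which sample is taken as the numerator.

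**Figure D1:**
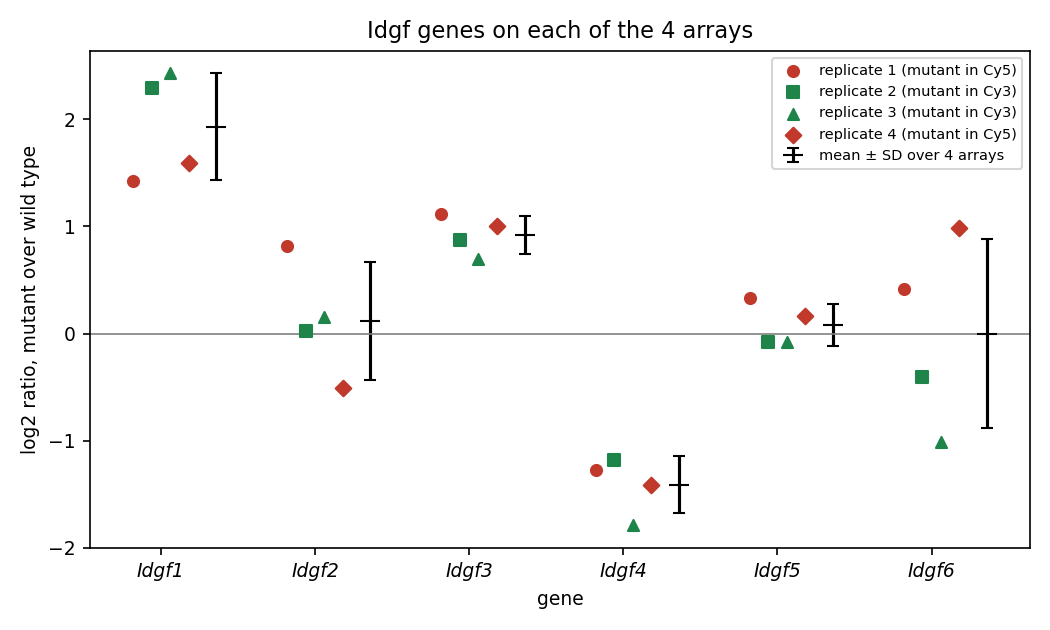
Log2 ratio of mutant over wild type (y axis) for each Idgf gene (x axis) on the 4 arrays, coloured by the dye of the mutant sample, with the mean and SD over the 4 arrays in black. The Idgf1 points lie between 1.42 and 2.43, the Idgf3 points between 0.70 and 1.12 and the Idgf4 points between -1.79 and -1.18, while the points of Idgf2, Idgf5 and Idgf6 fall on both sides of 0.

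Idgf2, also described as a growth factor of disc cells, had log2 ratios of 0.82, 0.02, 0.15 and -0.51 on replicates 1 to 4. Replicates 2 and 3 were near 0, replicate 1 was high and replicate 4 low, so the extremes came from the arrays that share an orientation, with the mutant in Cy5. The orientation means were 0.15 and 0.09 and differed by less than the spread between arrays. The mean of 0.12 was smaller than the SD of 0.55.

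Idgf5 had log2 ratios of 0.33, -0.08, -0.08 and 0.16 on replicates 1 to 4. All were small, within 1.26-fold of equal levels, and the SD of 0.20 was at percentile 13.1 of all features. Idgf6, first described as DS47, a protein secreted by cultured cells, had log2 ratios of 0.42, -0.41, -1.01 and 0.99. Its mean over arrays was 0.00, but its SD of 0.88 was at percentile 89.1, so the mean hides values that reached 2.02-fold in opposite directions.

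Idgf5 and Idgf6 shared a pattern with the dyes, above 0 on both arrays with the mutant in Cy5 and below 0 on both with it in Cy3. Of all features 8.42% had this pattern, and 17.2% had opposite signs between orientations in either sense. The orientation means were 0.25 and -0.08 for Idgf5 and 0.70 and -0.71 for Idgf6. For Idgf6 the difference between orientations was at least as large as that of 93.6% of features. For Idgf1 the corresponding share was 78.6%, with the opposite sense, and for Idgf2, Idgf3, Idgf4 and Idgf5 it lay between 8.45% and 38.9%. A dye bias of the probe and a difference between the paired extracts cannot be told apart for a single gene on 2 arrays per orientation.

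**Figure D2:**
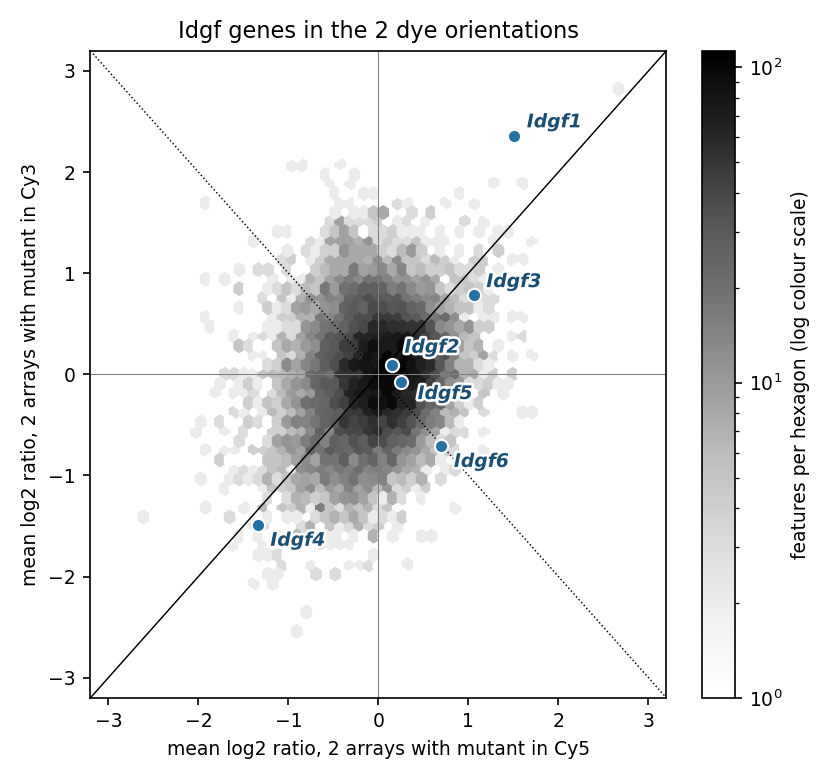
Mean log2 ratio over the 2 arrays on which the mutant carried Cy5 (x axis) against that over the 2 arrays with the mutant in Cy3 (y axis), with all features as grey hexagons on a log colour scale and the Idgf genes as labelled blue points; 106 features lie outside the axes. Idgf3 and Idgf4 lie near the solid line of equal values and away from the centre, Idgf1 lies above that line at 1.51 and 2.36, Idgf2 and Idgf5 lie near the centre, and Idgf6 lies on the dotted line of equal and opposite values at 0.70 and -0.71.

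If the deposited ratios had not yet been turned for the dye swap, the signs of replicates 2 and 3 would be reversed, and the 6 genes would sort differently. Idgf5 and Idgf6 would then be above 0 on all 4 arrays, with Idgf6 at a mean of 0.71. Idgf1, Idgf3 and Idgf4 would have means of -0.43, 0.14 and 0.07 and values of both signs, and limma called 0 features under that coding (1053 at an unadjusted p under 0.05).

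Ordered by mean, the family ran Idgf1, Idgf3, Idgf2, Idgf5, Idgf6 and Idgf4. Of the 15 pairs of members, 10 had ranges over the 4 arrays that did not overlap. Apart from Idgf3 with Idgf5, each of these pairs held Idgf1 or Idgf4, the extremes. The share among pairs of all features was not computed. As the family was chosen for its opposite directions, nothing is read from this count. Idgf1 exceeded Idgf3 on all 4 arrays, by 0.31, 1.42, 1.74 and 0.59 on replicates 1 to 4, with no overlap of their ranges. Idgf3 exceeded Idgf2 on 4 of 4 arrays by 0.80 ± 0.53, but the ranges of these genes overlapped. Idgf2 against Idgf5 (0.04 ± 0.50) and Idgf5 against Idgf6 (0.09 ± 0.74) differed by less than the spread between arrays, so the order of these 3 genes was not resolved. Idgf6 exceeded Idgf4 on all 4 arrays by 1.41 ± 0.79, without overlap.

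Of all pairs, Idgf3 and Idgf5 kept the steadiest distance. Idgf3 was higher by 0.79, 0.95, 0.78 and 0.84 on replicates 1 to 4 (0.84 ± 0.08). The pair Idgf3 and Idgf4 came next, with Idgf3 higher by 2.39, 2.05, 2.49 and 2.41 (2.33 ± 0.19). These compare ratios between probes and not levels of RNA.

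Idgf1, Idgf2 and Idgf3 are direct neighbours on chromosome arm 2L in the RefSeq gene order, Idgf4 is on X, and Idgf5 and Idgf6 are apart on 2R. The adjacent genes of the 2L cluster did not share a ratio. Idgf2 lies between Idgf1 and Idgf3, and its value was the lowest of these 3 on every array. The members of this cluster are similar in sequence, and whether their probes share hybridization was not tested.

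The genes on either side of the cluster were closer to 0 than Idgf1 and Idgf3. Before it lie jhamt, the juvenile hormone acid methyltransferase gene, at 0.35 ± 0.20 (limma adjusted p = 0.306) and CG5888 at 0.60 ± 0.12 (0.123), both above 0 on all 4 arrays. After it lie dac, a transcription regulator of eye and leg development, at 0.16 ± 0.14 (limma adjusted p = 0.604), and Nepl8, named as neprilysin-like, at 0.11 ± 0.42 (0.809). None of these 4 genes passed the threshold. The dac gene was also above 0 on all 4 arrays, though its value on replicate 4 rounds to 0.00. Of all features, 14.0% were above 0 on all 4.

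Around Idgf4 the nearest 4 measured genes were at 0.04 ± 0.32 (CG15249), 0.35 ± 0.82 (CG1986), -0.13 ± 0.47 (CG1791) and -0.09 ± 0.26 (CG1889). None had a value as low as the highest value of Idgf4, -1.18, on any array, and none passed the threshold (limma adjusted p from 0.585 to 0.918).

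Idgf5 lies between genes of immune peptides and of glutathione transferases. The bomanin peptide genes BomS5 and BomS6 were at 2.19 ± 0.88 and 1.73 ± 1.34 and above 0 on all 4 arrays, and did not pass the threshold (limma adjusted p = 0.0551 and 0.142). The glutathione transferase genes GstE10 and GstE1 were at 0.31 ± 0.35 and 0.81 ± 0.62 (limma adjusted p = 0.42 and 0.181). On each array the value of Idgf5 was below those of both bomanin genes. Around Idgf6, Picot was at -0.34 ± 0.35, Pgant9, a gene for an enzyme that starts O-linked glycans, at -0.18 ± 0.39, CG15617 at 0.52 ± 0.19 and Acp53C14a at 0.18 ± 0.33, with none past the threshold.

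**Figure D3:**
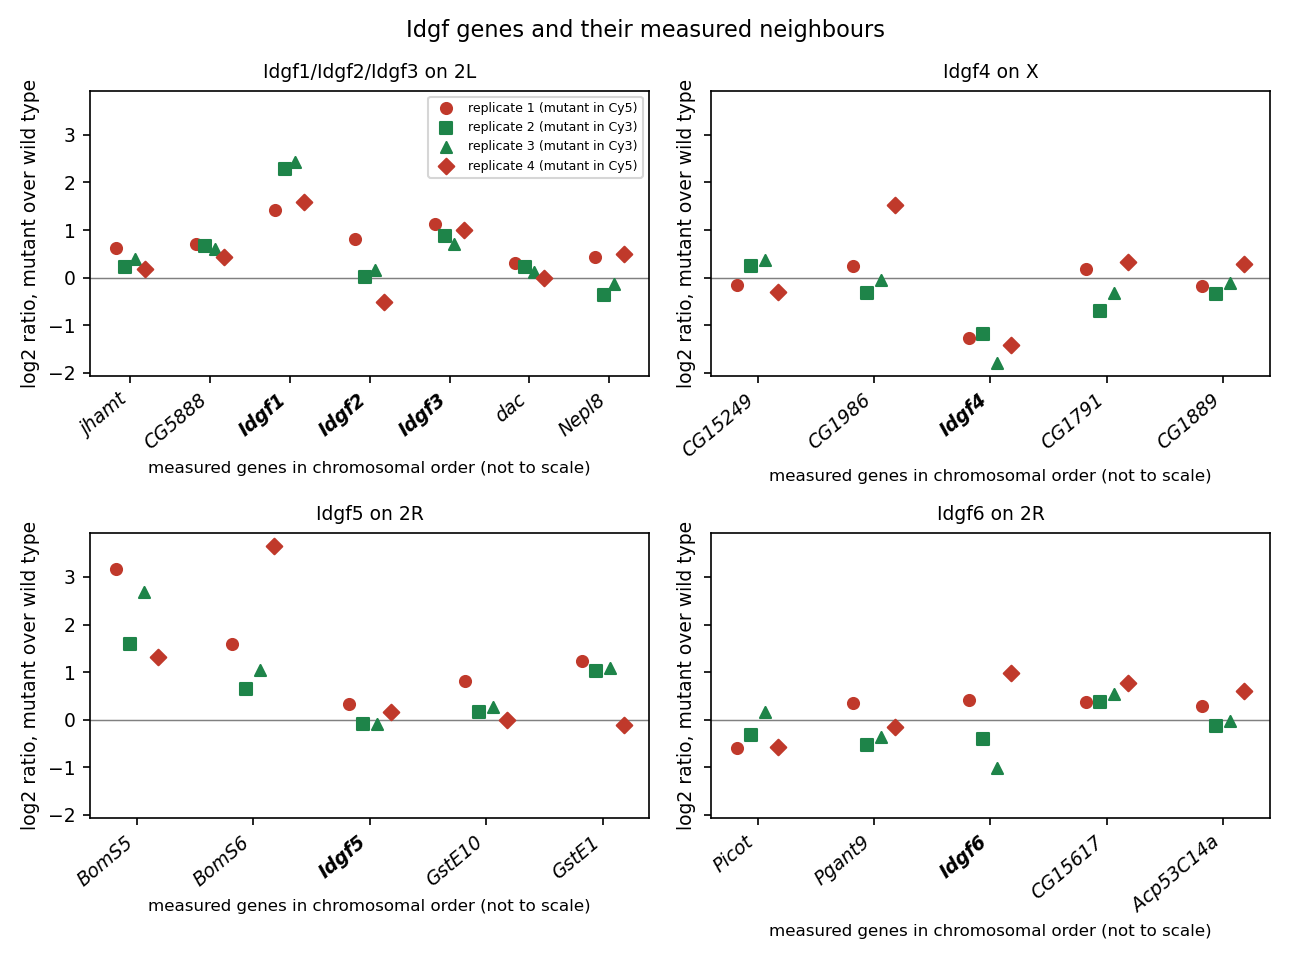
Log2 ratio of mutant over wild type (y axes) on each array for the Idgf genes (bold) and the nearest 2 measured genes on each side, in chromosomal order and not to scale, coloured by the dye of the mutant sample. Idgf1 and Idgf3 stand above Idgf2 between them and above the outer genes dac and Nepl8, Idgf4 stands below its neighbours, and Idgf5 lies below the bomanin genes BomS5 and BomS6.

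The genes whose 4 array values were most like those of each member were found by the root mean square distance in log2 units over 11979 other named genes. For Idgf1 they were Hsp70Ab, a heat shock chaperone gene, at a distance of 0.33 and GstD3, a glutathione transferase gene, at 0.35. Hsp70Ab had values of 1.39, 2.08, 3.03 and 1.42, and GstD3 of 1.32, 1.94, 1.83 and 1.62. No named gene was within 0.25 of Idgf1. For Idgf4 the nearest were Nplp4, annotated as a neuropeptide-like precursor, at 0.17 and Gpdh1, the glycerol-3-phosphate dehydrogenase gene, at 0.19, and 7 genes were within 0.25. Nplp4 was at -1.40 ± 0.25 and Gpdh1 at -1.42 ± 0.34.

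For Idgf3 the nearest were Cyp4ac3, a cytochrome P450 gene, at a distance of 0.11 and Ddx56, a DEAD-box helicase gene, at 0.13, with 20 genes within 0.25. The other members had more genes of like values: 42 genes lay within 0.25 of Idgf6, 171 of Idgf2 and 1021 of Idgf5. The nearest were CG30472 (0.11) and lbk (0.13) for Idgf6, CG40298 (0.08) and mthl11 (0.10) for Idgf2, and Cdk5 (0.03) and fidipidine (0.04) for Idgf5. With 4 arrays, likeness describes these values and nothing further.

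Among the catalytic relatives of the family, the chitinases, 0 of 10 genes rose and 1, Cht9, fell in limma's test. Of all features, 0.396% rose and 0.425% fell in it. Of the 10 genes, 2 were below 0 on all 4 arrays, Cht9 and Cht6 (-0.46 ± 0.44), and 1 was above 0 on all 4, Cht12. The shares of all features were 14.9% below 0 and 14.0% above 0 on all 4. Cht9 had log2 ratios of -3.50, -3.16, -2.28 and -4.44 on replicates 1 to 4, a mean of -3.34 ± 0.89 (limma adjusted p = 0.0339). No Idgf gene reached a value that low on any array. The median over the 10 chitinase genes was -0.05, beside 0.02 over all features, and the other 9 means lay between -0.67 (Cht4) and 0.59 (Cht12). Cht10, named after its values were seen, had 0.43, -0.67, -1.30 and 1.31 on replicates 1 to 4, the signs of Idgf6 in each case.

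Genes of chitin synthesis, assembly and deacetylation gave 0 past the threshold of 28 measured in limma, with a median of -0.18 and 20 of the 28 means below 0. The share of all features with a mean below 0 was not computed. Of the 28 genes, 6 were below 0 on all 4 arrays and 5 above 0 on all 4, beside 14.9% and 14.0% of all features. At an unadjusted p under 0.05 there were 13, 5 higher and 8 lower, beside 2670 of all 13891 features. The smallest p belonged to obst-G, a chitin-binding protein gene, at 0.88 ± 0.28 (limma adjusted p = 0.0801), and mmy, which encodes the enzyme making the activated sugar for chitin, at -1.02 ± 0.50 (0.0951). Their values lay on opposite sides of 0 on all 4 arrays.

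In the list of secreted growth factors and insulin pathway genes, 0 of 15 measured genes passed in limma (3 at an unadjusted p under 0.05), with a median of 0.08. The insulin receptor gene InR had 0.39, 1.21, 1.58 and 0.91 on replicates 1 to 4 (1.02 ± 0.50, limma adjusted p = 0.0955). Adgf-A, a secreted adenosine deaminase and growth factor of another family, was at -0.83 ± 0.34 (0.0984).

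In the list of clotting and wound response, 0 of 13 genes passed in limma (4 at an unadjusted p under 0.05), with a median of 0.17. The tyrosine hydroxylase gene ple was at 1.16 ± 0.37 and above 0 on all 4 arrays (limma adjusted p = 0.0616). The clotting factor gene fon was at -0.94 ± 0.29 and below 0 on all 4 (0.0748), opposite in sign to Idgf3. Over the whole array, 2670 of 13891 features had an unadjusted p under 0.05.

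**Figure D4:**
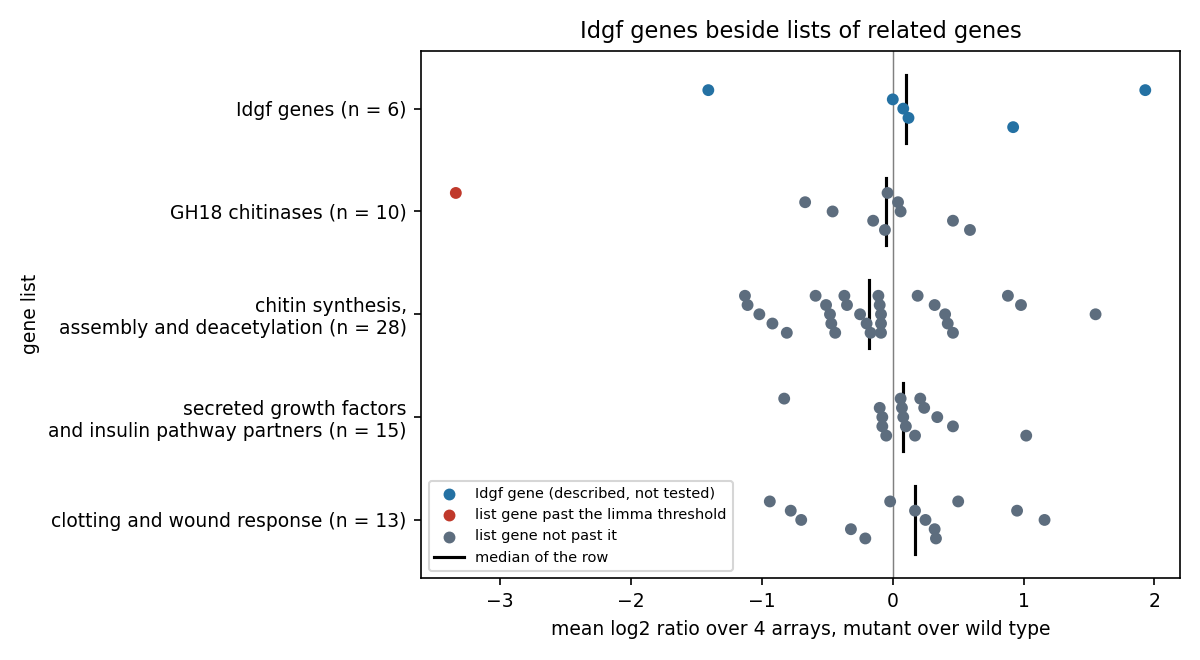
Mean log2 ratio over the 4 arrays (x axis) for each Idgf gene (blue) and each measured gene of 4 lists of related genes (rows), with the row's median as a black line and genes past limma's threshold in red. The Idgf genes run from -1.41 to 1.93, Cht9 at -3.34 is the list gene past the threshold, and the list medians lie between -0.18 and 0.17.

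Markers of tissues that whole larvae hold differed between the samples of an array. The 4 measured fat body markers had medians of 2.12, 0.12, -1.55 and 0.23 on replicates 1 to 4, but they did not move together. Lsp2, a larval serum protein gene, had 3.91, 0.60, -6.44 and 1.0, and Fbp2 had 3.53, -0.36, -2.02 and -0.05. Fbp1 had -0.28, 1.92, -1.09 and 0.50, and apolpp, the lipophorin gene, had 0.72, -1.03, -0.98 and -0.53. For Lsp2 and Fbp2 the orientation means had the signs of those of Idgf6 (0.70 and -0.71), at 2.45 and -2.92 and at 1.74 and -1.19. They also had them for apolpp at 0.09 and -1.01, while for Fbp1 they were 0.11 and 0.42. Array by array, none of the 4 markers kept the signs of Idgf6. Lsp2 differed on replicate 2, Fbp2 and apolpp on replicate 4, and Fbp1 on replicates 1 and 2. The share of all features with such orientation means was not computed. Blood cell markers (11 genes) had medians between -0.26 and -0.04 on the 4 arrays, and imaginal disc markers (10 genes) between -0.20 and 0.03. Epidermis and cuticle markers (6 genes) had medians of -0.30, -0.35, 0.29 and 0.26, and gut markers (9 genes) of 1.32, -0.41, 0.35 and -0.85. The gut medians ordered the arrays as the values of Idgf2 did (0.82, 0.02, 0.15 and -0.51). So did the salivary gland medians of 1.30, 0.93, 1.20 and 0.70. The gut markers did not move together, as Mal-A2 and Mal-A3 were below 0 on all 4 arrays and Amy-d above 0 on all 4. The fat body and imaginal disc medians ordered the arrays as Idgf3 did (1.12, 0.87, 0.70 and 1.0). The muscle medians (-0.66, -0.78, -0.96 and -0.08) ordered them as Idgf6 did (0.42, -0.41, -1.01 and 0.99). With 4 arrays and several lists, such matches describe these values and nothing further. The part of RNA from any tissue in the values of an Idgf gene was not tested.

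The medians of the muscle and salivary gland markers each kept their sign on all 4 arrays, as did that of the blood cell markers. The genes that did so were 7 of 9 for muscle, 5 of 7 for salivary gland and 2 of 11 for blood cells, beside 28.9% of all features. Of the muscle markers, 9 of 9 means were below 0, with medians of -0.66, -0.78, -0.96 and -0.08 on replicates 1 to 4, and of the salivary gland markers 7 of 7 were above 0 (ng4 by only 0.01), with medians of 1.30, 0.93, 1.20 and 0.70. None of these muscle and salivary gland genes passed the threshold in limma. At an unadjusted p under 0.05 there were 7 muscle and 4 salivary gland genes, beside 2670 of all 13891 features. Idgf4 lay below the muscle median and Idgf1 above the salivary gland median on every array, and the part of these tissues in either value was not tested.

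The Invadolysin probe was at 0.10 ± 0.16 (limma adjusted p = 0.761) and is no check on the labels, since where 4Y7 alters the gene is not known here. Leaving out replicate 1, 2, 3 or 4 gave means from 1.77 to 2.10 for Idgf1, 0.86 to 1.0 for Idgf3 and -1.49 to -1.29 for Idgf4. Dropping 1 of 4 arrays always moves a mean by less than the SD, so these ranges are no test of stability. The count of Idgf genes past limma's threshold went from 2 to 0 when any single array was left out, and adding the dye to the fit left 0 features past it, Idgf genes included (3537 features had an unadjusted p under 0.05). The call of Cht9 was lost without replicates 1, 2 and 4, under quantile normalization and with the dye in the fit.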

How the data were processed

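The table used holds 1 deposited log2 ratio per probe and array (14569 probes, 4 arrays). The sources used here do not say how the authors normalized it, nor its base, centring or direction. Values ran from -13.22 to 11.06, which was read as base 2, and column medians were -0.0015, 0.0042, 0.0128 and -0.0005 on replicates 1 to 4. Channel brightness was not used here, which leaves background unexamined, and precision is limited by the number of arrays.

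Of the probes, 12658 had 1 symbol in the platform annotation, 96 several and 1815 none. Probes of a gene were averaged, which left 13891 features. Matching 12012 probes to the RefSeq table (Release 6 plus ISO1 MT) renewed 0 symbols, and the table gave gene order. Each feature was tested against 0 with limma 3.58.1 (R 4.3.3; lmFit, eBayes, two-sided, Benjamini-Hochberg). Tables and figures used Python 3.11.15. SDs are over 4 arrays.

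Members and lists were chosen with earlier results of these data known. Named genes were the members, per list up to 3 past the threshold or else the 2 with the smallest p, the 2 nearest measured genes on each side, the 2 most alike, and Invadolysin. Sequences of the proteins and promoters were not analysed here. The alternatives tried changed the normalization between arrays, the turning of swapped arrays, the arrays and weights used and the treatment of probes.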

Additional observations from a re-analysis of the deposited data

Results flagged for a closer look

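Idgf5 and Idgf6 had opposite signs in the dye orientations on every array, and this difference was not tested. Idgf5 had a mean of 0.25 where the mutant carried Cy5 and -0.08 where it carried Cy3, and Idgf6 had 0.70 and -0.71. Among the 42 named genes, 1 had an array far from the others: GstE1, beside Idgf5, was at -0.11 on replicate 4 and between 1.02 and 1.24 on the other arrays. Chance flags about 1 in 20 such groups.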

How the results depend on the processing

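Of 148 values recomputed under the alternatives, 117 stayed within the SD over arrays or, for counts, within 1.5 times. This share is no measure of stability. Gene means over fewer of these arrays always stay within the SD over all 4, so Idgf6 counted as unchanged at 0.70 and -0.71. With ratios not yet turned, the count of 2 Idgf genes above 0 on all arrays also stayed, but as Idgf5 and Idgf6. Ratios taken as not yet turned gave log2 ratios of -0.43 for Idgf1, 0.14 for Idgf3 and 0.07 for Idgf4, 0 Idgf genes below 0 on all arrays (1 as reported), and 0 Idgf genes, 0 list genes and 0 features past limma's threshold. Idgf genes past it (2 as reported) were 0 without any replicate (range 0 to 0) and 0 with the mutant in Cy5 alone, but 3 (Idgf1, Idgf3 and Idgf4) with it in Cy3 alone and with array weights. On the 2 arrays with Cy5 4 Idgf genes were above 0, and with the mutant in Cy3 alone 3 were below 0, as fewer arrays make a shared sign easier. Features called (114 as reported) were between 0 and 21 without a replicate, 4 with the mutant in Cy5 alone, 2573 with it in Cy3 alone, 6079 with array weights (from 0.232 to 5.47), 0 with a dye term and 217 without features over 5 in size. Calls split 55 higher and 59 lower, against 55 and 35 under quantile normalization. List genes past the threshold (1 as reported, Cht9) were 0 under quantile normalization and with a dye term, between 0 and 1 without a replicate, 20 with the mutant in Cy3 alone, 37 with array weights and 2 without features over 5 in size. The cause of these changes was not tested. The fit was already paired, since each array's ratio sets its mutant sample against its wild-type sample, and no separate paired analysis was run. Without brightness, how far dim signal limits any value is unknown.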
